A study of Mus musculus with 4 samples.

Results

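The 7 genes described here, Lef1, Tcf7, Il7r, S1pr1, Klf2, Satb1 and Bach2, were chosen by name as genes of naive T cell quiescence and homing, out of 31053 measured features. Their counts of unique molecules (UMIs) were read in CD4, CD8 and gamma-delta T cells, NK cells and B cells of each library. The single-cell RNA-seq libraries came from live CD45+ cells sorted from C57BL/6 mouse lung, 14 days after injection. There were 4 groups, with 1 library each: lung tumors of Rab37 KO mice injected with LLC cells (Lewis lung carcinoma, a mouse lung cancer line), lung tumors of LLC-injected WT mice, normal lung of Rab37 KO mice injected with Matrigel (an extracellular matrix gel), and normal lung of Matrigel-injected WT mice. The labels do not give the age, the number of animals pooled or which part of Rab37 is deleted.

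A naive T cell circulates in a resting state between blood, lymph and lymphoid organs until it meets its antigen. Its rest is maintained by transcription factors that hold the naive program and by survival signals from interleukin 7, and its exit from lymphoid organs depends on a receptor that senses sphingosine-1-phosphate. Activation, effector differentiation and settling in tissue are known to lower most of these transcripts.

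Because each group had 1 library, no difference below has a replicate check and no test was made. Ratios are of summed UMIs scaled to a common total (CPM) and are called higher or lower when past 1.5-fold. Intervals are exact 95% intervals that cover counting error only, since cells of 1 library are not independent replicates. After filtering there were 2725, 644, 4646 and 5063 cells in the tumor KO, tumor WT, normal KO and normal WT libraries, and the median cell in them had 6556, 3979, 5486 and 5053 UMIs. T-like cells were 2.83% and 8.54% of the tumor KO and tumor WT cells, and 31.4% and 31.6% of the normal KO and normal WT cells. That left 77 T-like cells in tumor KO and 55 in tumor WT, against 1459 in normal KO and 1602 in normal WT, and every tumor value rests on these few cells. Pairs of libraries shared 0 to 8 cell barcodes. Rab37 had 0 UMIs in tumor KO T-like cells, with an upper limit of 8.82 CPM, and 10.1 CPM in tumor WT ones. The tumor WT level rests on very few UMIs, so Rab37 does not tell the tumor genotypes apart in these cells. In normal lung Rab37 was at 0.603 CPM in KO T-like cells and 16.9 CPM in WT ones.

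The sexes of the cells did not match between the tumor libraries. By Xist against 4 Y-linked genes, the tumor KO T-like cells that could be called were 0 female and 50 male, and the tumor WT ones were 42 female and 0 male. The normal libraries held both, with 544 female and 453 male T-like cells in KO and 678 female and 456 male in WT. In the tumor the genotypes thus cannot be told apart from the sexes, while tumor against normal can also be read within 1 sex.

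The 5 classes carried the markers used to build them. Cd4 stood at 285, 349, 320 and 332 CPM in the CD4 cells of tumor KO, tumor WT, normal KO and normal WT, and Cd8a at 403, 430, 215 and 187 CPM in the CD8 cells in that order. The CD4 gate rested on a single Cd4 UMI in 66.7%, 63.6%, 60.0% and 64.2% of its cells in the same order. T-like cells that fit no single gate stayed unassigned, 30, 34, 469 and 630 of them in that order, and count only among T-like cells. Gamma-delta T cells numbered 4 and 0 in tumor KO and tumor WT, against 117 in normal KO and 71 in normal WT, so that class was read in normal lung alone. Foxp3, the regulatory T cell factor, was at 160 and 186 CPM in the tumor KO and tumor WT CD4 cells, against 35.3 and 23.5 CPM in the normal KO and normal WT ones.

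Of the 7 genes, 6 have a promoter window in the RefSeq table of build GRCm38.p6 (250 bases before to 50 after a start site, 14 windows in all). They were searched on both strands for short motifs of factor families tied to naive T cells. The KLF motif, CCACCC, lay in 8 of the 14 windows (57.1%), some of which overlap, and in 31.5% of all 32851 mouse promoter windows. The TCF/LEF motif, CTTTGA, lay in 2 of the 14 (14.3%) and in 16.0% of all windows. The ETS motif, ACCGGAAG, lay in 2 of the 14 (14.3%) and in 2.30% of all, and the FOXO motif, TGTTTAC, in 1 of the 14 (7.14%) and in 3.65% of all. The set itself holds a KLF factor and a pair of TCF/LEF factors, and 4 windows that carry such a motif are shown. Each is written 5′ to 3′ on the gene's strand with the motif letters of either strand in capitals.
Tcf7, chr11:52282546-52282845, minus strand, with KLF, ETS and FOXO motifs: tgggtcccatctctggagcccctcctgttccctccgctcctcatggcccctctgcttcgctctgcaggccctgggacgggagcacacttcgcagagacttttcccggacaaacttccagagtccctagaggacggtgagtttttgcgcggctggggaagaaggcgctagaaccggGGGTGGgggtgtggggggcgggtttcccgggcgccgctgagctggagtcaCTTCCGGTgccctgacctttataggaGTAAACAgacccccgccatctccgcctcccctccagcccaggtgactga
Klf2, chr8:72318812-72319111, plus strand, with a KLF motif: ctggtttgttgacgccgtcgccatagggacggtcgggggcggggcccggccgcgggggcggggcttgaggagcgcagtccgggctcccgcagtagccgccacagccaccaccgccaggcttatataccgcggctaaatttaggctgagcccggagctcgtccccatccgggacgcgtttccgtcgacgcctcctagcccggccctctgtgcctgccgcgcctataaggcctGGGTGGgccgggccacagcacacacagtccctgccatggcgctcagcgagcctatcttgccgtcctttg
Lef1, chr3:131156044-131156343, plus strand, with a pair of TCF/LEF motifs: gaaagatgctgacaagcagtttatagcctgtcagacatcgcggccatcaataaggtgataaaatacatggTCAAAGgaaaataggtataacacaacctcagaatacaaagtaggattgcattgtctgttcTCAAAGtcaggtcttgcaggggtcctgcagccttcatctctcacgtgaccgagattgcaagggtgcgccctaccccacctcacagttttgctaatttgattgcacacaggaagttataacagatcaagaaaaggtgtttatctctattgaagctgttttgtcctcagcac
Bach2, chr4:32417185-32417484, plus strand, with TCF/LEF and ETS motifs: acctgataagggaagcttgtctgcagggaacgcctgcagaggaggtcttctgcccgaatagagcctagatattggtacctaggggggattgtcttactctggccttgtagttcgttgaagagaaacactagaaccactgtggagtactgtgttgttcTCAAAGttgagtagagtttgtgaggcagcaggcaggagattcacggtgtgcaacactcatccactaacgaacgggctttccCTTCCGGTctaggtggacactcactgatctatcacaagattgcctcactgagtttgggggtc
In the GENCODE annotation of GRCm38, 85 of the 300 bases of the Tcf7 window lay in an exon and none in coding sequence. The Lef1 window lay wholly in the gene, with 0 exonic bases. The Bach2 window lay in the gene too, with 50 exonic bases, while 79 of the Klf2 bases were exonic and 34 of those coding. Matches of this length are a description of the letters and not of binding.

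The genes are spread over 6 chromosomes. In GRCm38, Lef1 (ENSMUSG00000027985) lies at chr3:131110471-131224356 on the plus strand and S1pr1 (ENSMUSG00000045092) at chr3:115710433-115715072 on the minus strand. Tcf7 (ENSMUSG00000000782) lies at chr11:52252371-52283014 and Il7r (ENSMUSG00000003882) at chr15:9505788-9530176, both on the minus strand. Klf2 (ENSMUSG00000055148) lies at chr8:72319033-72321656 on the plus strand, Satb1 (ENSMUSG00000023927) at chr17:51736187-51833290 on the minus strand and Bach2 (ENSMUSG00000040270) at chr4:32238804-32586108 on the plus strand.

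Lef1 and Tcf7, the paired HMG-box factors that receive Wnt signals and hold the naive and memory-like T cell program, were T cell genes in these libraries, with a lower level in NK cells. Lef1 was highest in normal CD8 cells, at 473 CPM in KO and 508 CPM in WT, and in normal CD4 cells, at 442 CPM in KO and 409 CPM in WT. It stood at 112 CPM in tumor KO CD8 cells and 380 CPM in tumor WT ones, and at 45.6 CPM in tumor KO CD4 cells and 186 CPM in tumor WT ones. The tumor KO values lay below all 4 normal CD4 and CD8 values with intervals apart, and the tumor WT CD8 interval overlapped them. Normal gamma-delta T cells had 180 CPM in KO and 155 CPM in WT, and NK cells 81.2, 96.2, 71.7 and 63.1 CPM in tumor KO, tumor WT, normal KO and normal WT. In B cells Lef1 was at 7.99, 5.47, 18.1 and 5.09 CPM in tumor KO, tumor WT, normal KO and normal WT, beside 4.08, 16.6, 6.14 and 11.9 CPM in neutrophils. Only in normal KO was it above the neutrophils with intervals apart.

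Tcf7 had 180, 481, 331 and 348 CPM in the CD8 cells of tumor KO, tumor WT, normal KO and normal WT. In the CD4 cells it had 103, 186, 317 and 393 CPM in that order. The lowest T cell values were again those of tumor KO, while the tumor WT CD8 level was the highest of any class, with an interval of 290 to 751 CPM that overlapped its neighbours. Gamma-delta T cells had 215 CPM in normal KO and 326 CPM in normal WT, with intervals apart. NK cells had more Tcf7 in tumor, with 134 CPM in tumor KO and 192 CPM in tumor WT, than in normal lung, with 80.9 CPM in normal KO and 86.5 CPM in normal WT. B cells had 0 to 16.4 CPM, near the neutrophil range of 5.94 to 19.9 CPM.

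Il7r, the interleukin 7 receptor alpha chain that carries the survival signal of resting T cells, was highest in gamma-delta T cells, at 1443 CPM in normal KO and 1518 CPM in normal WT. CD8 cells had 496, 1164, 785 and 850.0 CPM in tumor KO, tumor WT, normal KO and normal WT. CD4 cells had 410.4, 698, 788 and 835 CPM in that order. The tumor KO cells were lowest in both classes, and the tumor WT CD4 interval overlapped the normal ones. NK cells had 90.1 to 150 CPM, and B cells had 7.99 to 32.8 CPM, below the neutrophil values of 25.9 to 112 CPM in each library.

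S1pr1, the sphingosine-1-phosphate receptor that T and B cells use to leave lymphoid organs, was shared by T and B cells and low in NK cells, which are known to use a related receptor. CD4 cells had 239, 349, 420.5 and 474 CPM in tumor KO, tumor WT, normal KO and normal WT. CD8 cells had 130.2, 304, 277 and 327 CPM in that order, so the tumor KO CD8 interval of 80.6 to 199 CPM lay below both normal ones. B cells lay among the T cell values, at 248, 213, 238 and 319 CPM, and NK cells had 43.6 to 67.4 CPM.

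Klf2, the zinc-finger factor that drives S1pr1 and restrains proliferation, was not restricted to T cells. It had 831, 1468, 1408 and 1488 CPM in the CD8 cells of tumor KO, tumor WT, normal KO and normal WT, and 331, 303, 1007 and 1094 CPM in the CD4 cells. Both tumor CD4 values, from 29 UMIs in KO and 13 UMIs in WT, lay below every other class, with intervals apart from all normal ones. NK cells had 1137, 855, 1205 and 1436 CPM and B cells 1242, 1115, 1132 and 1327 CPM, so both were in the T cell range. Neutrophils had 428 to 787 CPM, so Klf2 was not a naive T cell gene alone in these libraries.

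Satb1, a chromatin organizer of T cell development, was likewise shared by T, NK and B cells. CD8 cells had 453, 759, 617 and 551 CPM and CD4 cells 205, 93.1, 703 and 553 CPM in tumor KO, tumor WT, normal KO and normal WT. The low tumor CD4 values rested on 18 UMIs in KO and 4 UMIs in WT, of which 1 cell held 77.8% and 75%. B cells had 583, 284, 659 and 563 CPM and NK cells 453, 299, 587 and 437 CPM, and tumor WT was lowest in both. Neutrophils had 34.1 to 53.1 CPM.

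Bach2, a repressor of effector genes in T cells and of plasma cell differentiation in B cells, was a B cell gene first. B cells had 259.6, 180.4, 164 and 167 CPM in tumor KO, tumor WT, normal KO and normal WT, above every T and NK class. In normal lung the CD4 cells had 86.0 CPM in KO and 58.4 CPM in WT, and the CD8 cells 68.8 CPM in KO and 67.1 CPM in WT. The 2 genotypes' level intervals overlapped in both classes, though the interval of the CD4 ratio of KO over WT, 1.47 (1.08 to 2.02), left out 1. NK cells had 44.3 to 53.4 CPM, and the tumor CD4 and CD8 values rested on 1 to 6 UMIs each.

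**Figure D1:**
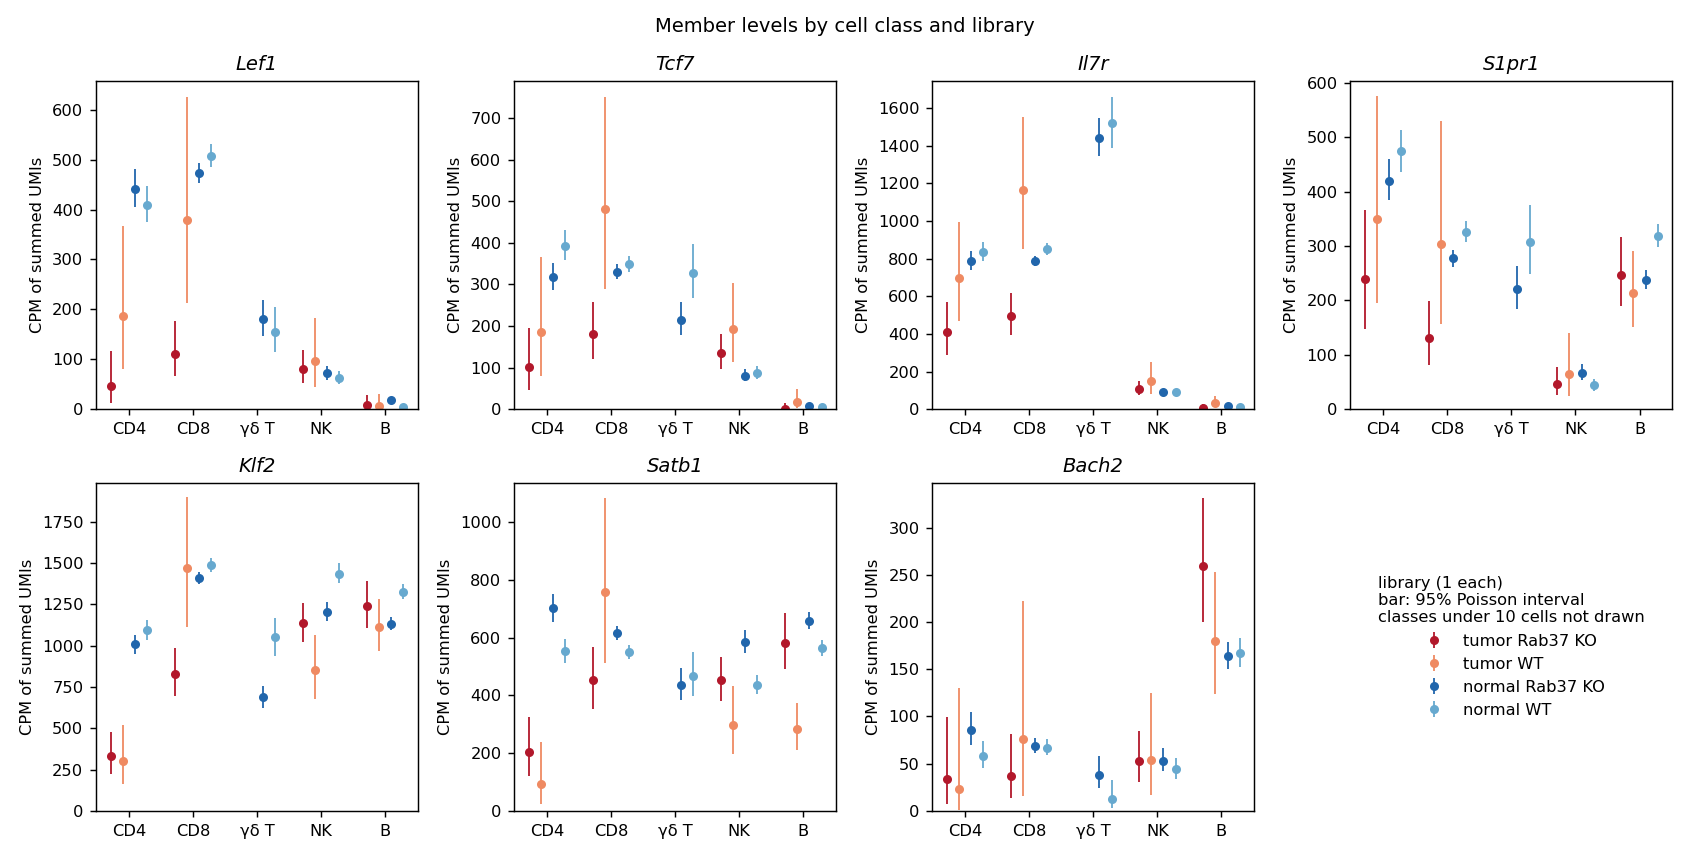
Level of each gene in CPM (y axis) by cell class (x axis) and library (colours), with exact 95% Poisson intervals and classes under 10 cells left out. Lef1, Tcf7 and Il7r are T cell genes with little in B cells, S1pr1, Klf2 and Satb1 are shared with B cells, and Bach2 peaks in B cells at 164 to 259.6 CPM.

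Shares of cells were taken after each cell was thinned to 1500 UMIs. In T-like cells at least 1 Lef1 UMI was found in 16.4%, 24.1%, 40.5% and 38.5% of the tumor KO, tumor WT, normal KO and normal WT cells, against 0% to 0.926% of neutrophils. Il7r was found in 50.7%, 63.0%, 62.2% and 64.5% of T-like cells, against 0.821% to 6.02% of neutrophils. Satb1 was found in 34.2%, 25.9%, 55.1% and 50.9% of T-like cells, against 3.58% to 5.09% of neutrophils. Klf2 was found in 46.6%, 50%, 63.1% and 65.3% of T-like cells, and in 43.9%, 47.2%, 56.5% and 51.0% of neutrophils, so its share alone does not set T cells apart. The median depths before thinning were 4967, 3095, 5436 and 4678 UMIs in T-like cells and 5566, 2430.5, 2732.5 and 2375 UMIs in neutrophils.

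The genes were also counted together within cells. At least 3 of the 7 were found in 41.1% of tumor KO T-like cells (interval 29.7% to 53.2%) and 42.6% of tumor WT ones (29.2% to 56.8%), against 60.6% of normal KO and 62.6% of normal WT ones. None of the 7 was found in 20.5% and 9.26% of tumor KO and tumor WT T-like cells, against 3.1% and 3.33% of normal KO and normal WT ones. In CD8 cells the share with at least 3 was 37.0% in tumor KO and 80% in tumor WT, against 69.4% in normal KO and 70.6% in normal WT. Tumor WT held 10 CD8 cells, and its share was the one that did not sit below normal lung. NK cells had 14.1% to 17.9% and neutrophils at most 0.983%.

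Tumor against normal lung asks how the naive genes stood in lymphocytes at a tumor site. The matrix headers give software version 3.1.0 in both tumor libraries and 3.0.1 in both normal ones. Tissue thus cannot be told apart from processing version in these ratios. In KO mice all 7 genes were lower in tumor T-like cells than in normal ones, past 1.5-fold and each with an interval that left out 1. In WT mice 3 of the 7, Lef1, Klf2 and Satb1, were lower past 1.5-fold. Both counts moved with the processing. In KO 4 of the 7 passed in male cells alone, and 4 of the 7 with the T-like clusters weighted alike. In WT 5 of the 7 passed in female cells alone, 6 under median-of-ratios scaling, 7 with classes called from each cell's own marker UMIs and 1 with the clusters weighted alike. Among all genes measured in the same T-like cells, 21.5% were lower past 1.5-fold in KO and 24.9% in WT, and 2.89% and 1.62% were so with an interval that left out 1. The genes higher past 1.5-fold were 23.2% in KO and 34.1% in WT, and none of the 7 was among them.

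Lef1 had the lowest ratio of the 7 in both genotypes. It had 132 CPM in tumor KO T-like cells against 412 CPM in normal KO ones, a ratio of 0.319 (0.240 to 0.417), and 188 CPM in tumor WT against 429 CPM in normal WT, a ratio of 0.437 (0.307 to 0.603). Klf2 had 667 CPM in tumor KO against 1148 CPM in normal KO (0.581, 0.514 to 0.654) and 710 CPM in tumor WT against 1253 CPM in normal WT (0.567, 0.476 to 0.669). Satb1 had 382.5 CPM in tumor KO against 673 CPM in normal KO (0.569) and 279 CPM in tumor WT against 580 CPM in normal WT (0.481). With the T-like clusters weighted alike in both libraries, Lef1 still passed in both genotypes, Klf2 in KO but not in WT and Satb1 in neither.

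The other 4 genes passed 1.5-fold in KO and not in WT on the CPM scale, a difference of ratios that was not tested. Tcf7 had 160 CPM in tumor KO against 304 CPM in normal KO (0.527, 0.407 to 0.672), and 299 CPM in tumor WT against 344 CPM in normal WT (0.869, 0.660 to 1.12). Il7r had 576 CPM in tumor KO against 947 CPM in normal KO (0.608, 0.533 to 0.692), and 984 CPM in tumor WT against 960.4 CPM in normal WT (1.02, 0.883 to 1.18). S1pr1 had ratios of 0.565 in KO and 0.759 in WT (0.569 to 0.993). Bach2 had ratios of 0.608 in KO and 0.866 in WT, on 17 tumor KO and 10 tumor WT UMIs. The median log2 ratio of the 7 genes was -0.81 in KO and -0.40 in WT, beside 0.09 and 0.31 over all genes measured. Median-of-ratios scaling put every log2 ratio 0.22 lower in KO and 0.40 lower in WT, so that Il7r in WT, at 0.03 on the CPM scale, was at -0.37. On that scale 6 of the 7 were lower past 1.5-fold in WT, all but Il7r, and 7 of the 7 in KO.

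Of the CD4 cells, 13 of 15 in tumor KO and 9 of 11 in tumor WT lay in T-like cluster 7, led by Tnfrsf4 and Ctla4, against 111 of 225 in normal KO and 151 of 265 in normal WT, so the make-up of the class differed between the tissues. Within CD4 cells all 7 genes were lower past 1.5-fold in tumor KO than in normal KO, 6 of them with an interval that left out 1, beside 28.0% and 1.94% of all genes. Lef1 had a ratio of 0.103 (0.028 to 0.266) from 4 tumor UMIs, Satb1 0.292 and Klf2 0.328. In WT, 5 of 7 were lower and 4 had such an interval, beside 35.4% and 1.40% of all genes, with Satb1 at 0.168, Klf2 at 0.277 and Il7r at 0.836. The KO median was -0.75 without the cells holding a Foxp3 UMI, against -1.61 with them. In normal KO lung the 15 CD4 cells with a Foxp3 UMI had all 7 genes lower than the 210 without, with Lef1 at a ratio of 0.309, beside 26.6% of all genes. In normal WT lung, with 13 cells against 252, Tcf7 (0.313) was lower and Klf2 (1.56) higher, beside 31.9% of genes lower and 27.6% higher.

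Of the CD8 cells, 21 of 28 in tumor KO lay in T-like cluster 1, led by Ccl5 and Nkg7, and 3 of 10 in tumor WT, against 134 of 648 in normal KO and 121 of 636 in normal WT. Nearly all others lay in cluster 0, where Lef1 was higher in normal lung. Within CD8 cells 6 of the 7 genes were lower past 1.5-fold in tumor KO than in normal KO, 5 of them with an interval that left out 1, beside 27.4% and 1.52% of all genes. Lef1 had a ratio of 0.236 (0.140 to 0.374), S1pr1 0.470, Tcf7 0.544 and Klf2 0.590, and Satb1 at 0.734 did not pass. In WT none of the 7 passed in either direction, while 49.1% of all genes were lower past 1.5-fold and 28.1% higher with 10 tumor cells. Il7r and Satb1 had ratios of 1.37 and 1.38 there, Klf2 0.987 and Lef1 0.747 (0.417 to 1.24).

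**Figure D2:**
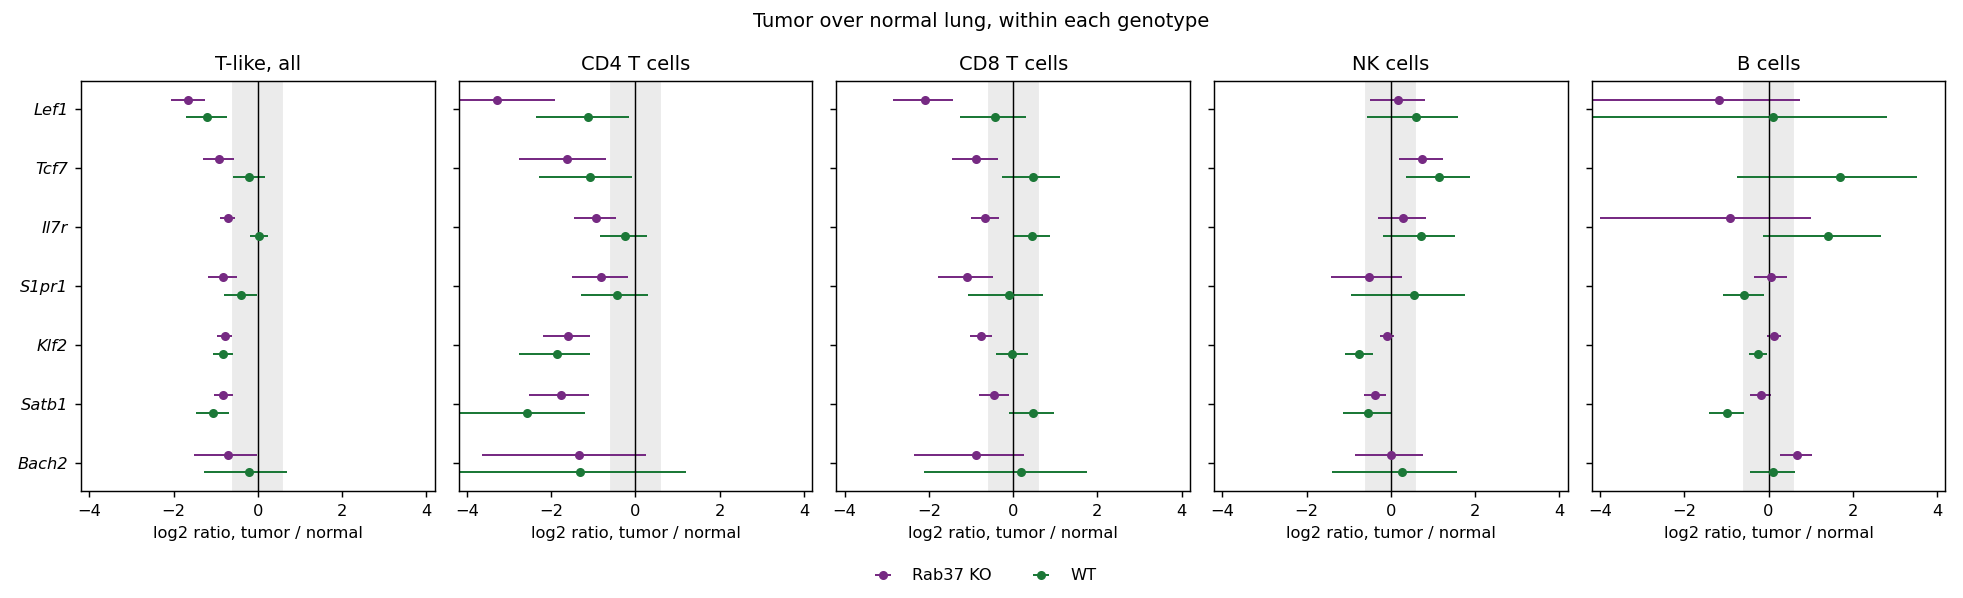
Log2 ratio of tumor over normal for each gene (y axis) in T-like, CD4, CD8, NK and B cells, with KO above WT, exact 95% counting intervals (some run past the axis) and a grey band for ratios within 1.5-fold; a gene at 0 UMIs in the tumor library is not drawn. In KO T-like cells all 7 genes sit left of the band with Lef1 farthest, and in WT CD8 cells all 7 intervals reach the band.

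In NK cells Tcf7 was called higher in tumor in both genotypes, but in neither with classes called from each cell's own marker UMIs. With those classes its log2 ratio turned to -0.15 in WT, and in KO none of the 7 genes was called higher and 4 were lower. On the main classes Tcf7 was as follows. It had a ratio of 1.66 (1.14 to 2.38) in KO, where 15.2% of all genes were higher, and 2.22 (1.28 to 3.65) in WT, where 27.0% were. Klf2 was lower in tumor NK cells of WT mice at 0.595 (0.470 to 0.744), where 26.8% of genes were lower, and stood at 0.944 in KO. Lef1 and Il7r were also called higher in WT tumor NK cells, at 1.52 and 1.65, on 9 and 14 UMIs with intervals that held 1. In B cells Bach2 was higher in tumor KO than in normal KO at 1.58 (1.20 to 2.06), where 23.3% of genes were, and stood at 1.08 in WT. Satb1 was lower in tumor WT B cells at 0.505 (0.375 to 0.666), where 20.4% of genes were, and stood at 0.885 in KO. Lef1, Tcf7 and Il7r calls in B cells, lower in KO beside 22.0% of genes and Tcf7 and Il7r higher in WT beside 32.1%, rested on at most 6 tumor UMIs with intervals that held 1.

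The tumor over normal T-like medians, -0.81 in KO and -0.40 in WT over all cells, were also taken within 1 sex. KO could be read in male cells only and WT in female cells only, so these medians do not compare the genotypes within a sex. Male cells alone gave a tumor over normal median of -0.61 in KO, with Lef1 at a log2 ratio of -1.25, and Il7r (-0.54), Satb1 (-0.55) and Bach2 (-0.32) did not pass. Female cells alone gave a median of -0.88 in WT, with Lef1 at -1.34, and S1pr1 (-0.73) and Bach2 (-1.05) passed as well. Classes taken from each cell's own marker UMIs, with 100 and 74 T-like cells in tumor KO and tumor WT, gave medians of -1.44 in KO and -1.24 in WT, farther from 0, with all 7 genes past 1.5-fold in both. Neutrophil markers summed to 194 and 2058 CPM in tumor KO and tumor WT T-like cells, against 86.7 and 32.9 CPM in normal KO and normal WT ones. In tumor WT they summed to 93.1 CPM in the CD4 cells and 0 CPM in the CD8 cells. The other 34 of its 55 T-like cells were unassigned. With only cells whose UMIs were under 0.1% neutrophil markers, the medians were -0.81 in KO and -0.30 in WT. Lyz2, a myeloid gene, stood at 108 and 1455 CPM in tumor KO and tumor WT T-like cells, against 96.9 and 72.1 CPM in normal KO and normal WT ones, and its part in the levels was not tested beyond this.

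KO against WT asks whether loss of Rab37, a small GTPase of secretory vesicles, goes with a different level of these genes. In tumor T-like cells Tcf7, Il7r and S1pr1 were lower past 1.5-fold in KO than in WT, each with an interval that left out 1, beside 22.4% of all genes lower and 6.53% with such an interval. None of the 7 was among the 17.7% of genes that were higher on that scale. With classes called from each cell's own marker UMIs none of the 3 passed as lower (Tcf7 -0.54, Il7r -0.40, S1pr1 -0.52 as log2 ratios) and Bach2 passed as higher (0.84). Median-of-ratios scaling ended the S1pr1 call (-0.50) and put Satb1 past 1.5-fold as higher (0.63), and clusters weighted alike ended the Il7r call (-0.54). In normal lung none of the 7 passed in T-like, CD4 or CD8 cells on the main setting, with Bach2 in CD4 cells nearest at 1.47 (1.08 to 2.02). The tumor libraries also differ in sex, so this tumor difference cannot be told apart from one of sex or of the animals sampled.

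In the tumor, the Tcf7 ratio was 0.535 (0.372 to 0.773), Il7r 0.586 (0.483 to 0.711) and S1pr1 0.629 (0.436 to 0.912). Lef1 stood at 0.701 (0.454 to 1.09), Klf2 at 0.940 (0.764 to 1.16) and Bach2 at 0.802, and Satb1 on the other side at 1.37 (1.00 to 1.90). The median log2 ratio was -0.51, beside -0.08 over all genes. In CD8 cells all 6 genes with enough UMIs were lower in KO, with Lef1 at 0.294 (0.140 to 0.626), Tcf7 at 0.374, Il7r at 0.426, S1pr1 at 0.429, Klf2 at 0.566 and Satb1 at 0.596, beside 18.0% of all genes lower and 2.79% with an interval that left out 1. That comparison set 28 KO cells, 21 of them in cluster 1 and 7 in cluster 0, against 10 WT cells, 3 of them in cluster 1 and 7 in cluster 0. In CD4 cells, 15 in KO and 11 in WT, Lef1 (0.245, on 4 and 8 UMIs), Tcf7 (0.551, 0.189 to 1.64) and Il7r (0.588) were lower. Satb1 was higher (2.20, 0.726 to 8.95), beside 22.1% of genes lower and 25.6% higher. Without the cell holding the most UMIs of the 7 genes, 4 genes had enough UMIs, with 1 lower and none higher. When cells were thinned to 1500 UMIs, Il7r turned to a log2 ratio of 0.19.

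In normal lung the T-like ratios ran from 0.845 for S1pr1 (0.801 to 0.892) to 1.16 for Satb1 (1.12 to 1.21). Lef1 stood at 0.959, Tcf7 at 0.883, Il7r at 0.986, Klf2 at 0.917 and Bach2 at 1.14. These are differences within 1.5-fold, where 6.40% of all genes were higher and 6.18% lower, and with 1 library a group their spread between animals is not known. The CD4 and CD8 medians were both -0.08, beside -0.01 and 0.02 over all genes, where 10.3% of genes in CD4 and 7.95% in CD8 cells were higher and 11.2% and 7.18% lower. In CD4 cells 1 of the 7 passed as higher with doublets kept, at least 2 marker UMIs, mean of per-cell CPM, thinning or Foxp3 cells left out. In female CD4 cells 2 of the 7 did, and under the other alternatives none. No share of all genes is given for these alternatives.

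In gamma-delta T cells of normal lung 3 of the 7 passed. The class was spread differently over the clusters in the 2 genotypes, with 65 of 117 KO cells and 28 of 71 WT cells in cluster 19, where Klf2 was low, and 40 cells of each genotype in cluster 1. Over all T-like cells of those clusters Klf2 had KO over WT ratios of 0.568 in cluster 19 and 0.840 in cluster 1. What the spread adds to the class ratios was not tested. Klf2 had 687 CPM in KO against 1049 CPM in WT (0.654, 0.564 to 0.760) and Tcf7 215 CPM in KO against 326 CPM in WT (0.660, 0.504 to 0.866), where 12.9% of all genes were lower. Bach2 was higher in KO at 3.04 (1.03 to 12.1), from 22 and 4 UMIs, where 18.6% were higher. Il7r, Lef1 and Satb1 stood at 0.951, 1.16 and 0.933. Median-of-ratios scaling, the mean of per-cell CPM, and giving the cells of a mixed cycling cluster to the classes each left none of the 7 lower past 1.5-fold.

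In NK cells Satb1 was higher in KO in the tumor at 1.51 (20.2% of genes higher) and S1pr1 in normal lung at 1.55 (1.12 to 2.15; 10.9% of genes higher). In male cells alone that S1pr1 log2 ratio turned to -0.32. In B cells Satb1 was higher in KO in the tumor at 2.05 (1.49 to 2.87; 17.7% of genes higher, with 4 of the 7 measured). Satb1 thus had a KO over WT ratio above 1 in T-like, NK and B cells of both tissues, at 1.16, 1.34 and 1.17 in normal lung, and below 1 in tumor CD8 cells and normal gamma-delta T cells. Lef1 was higher in normal KO B cells at 3.56, from 55 and 14 UMIs, and Tcf7 at 1.62, beside 8.82% of all genes. The Lef1 log2 ratio was 1.83, but 0.14 with doublets kept and -0.59 with classes called from each cell's own marker UMIs.

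**Figure D3:**
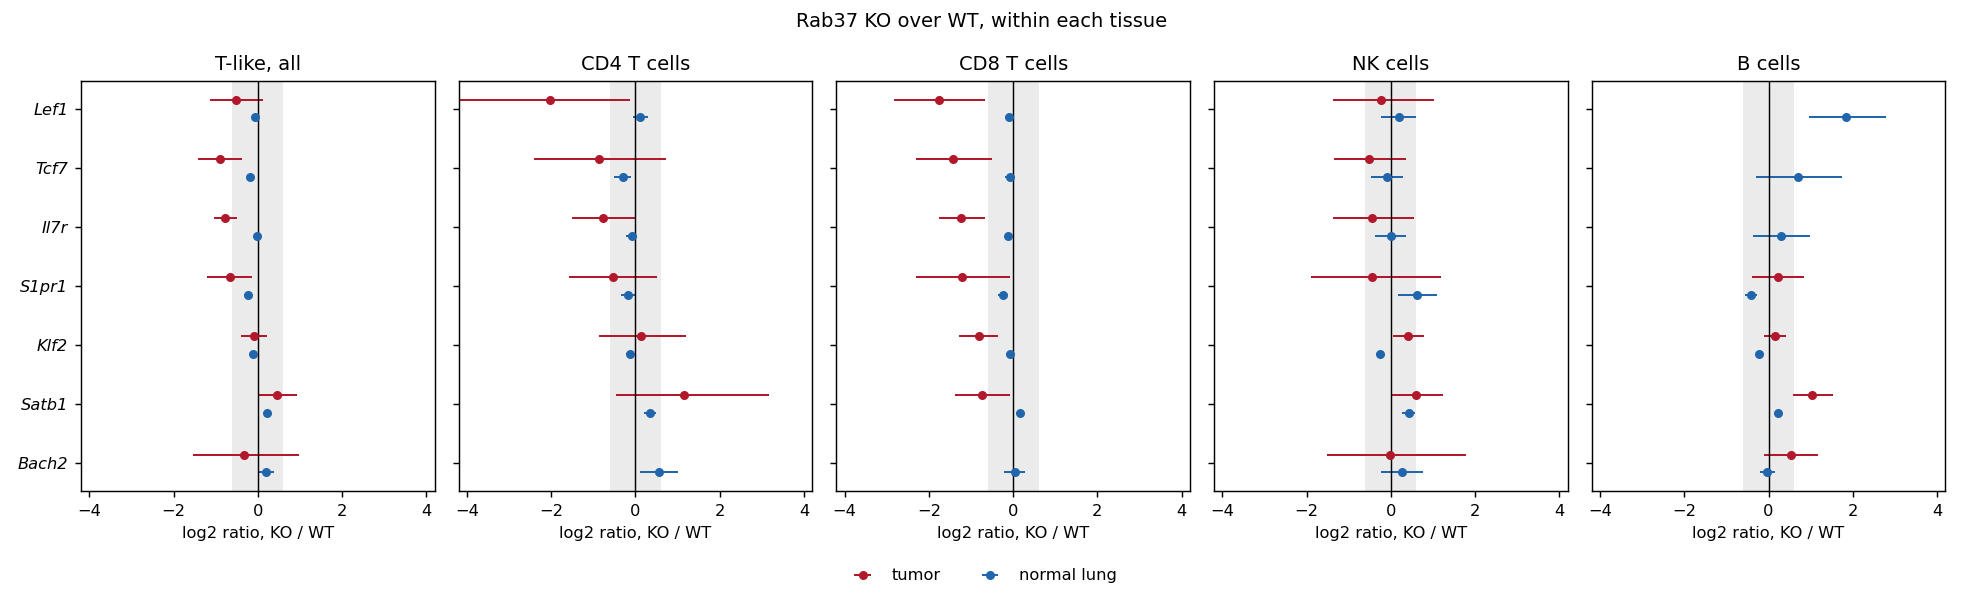
Log2 ratio of KO over WT for each gene (y axis) in T-like, CD4, CD8, NK and B cells, with tumor above normal, exact 95% counting intervals and a grey band for ratios within 1.5-fold; genes under 10 UMIs over both libraries are not drawn. Normal T-like, CD4 and CD8 points all lie inside the band, and the 6 tumor CD8 points drawn lie left of it.

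T-like cells fell into 4 clusters, built without the 7 genes. Cluster 0 was led by Lef1, the globin Hbb-bs, Cd8b1, Dapl1, Tcf7 and Ccr7, the chemokine receptor that brings naive T cells to lymph nodes. Cluster 1 was led by Ccl5, Xcl1 and Nkg7, genes of cytotoxic cells. Cluster 7 was led by Tnfrsf4, Ctla4 and Icos, genes of activated and regulatory T cells. Cluster 19 was led by Cxcr6 and Trdc, genes of tissue-resident and gamma-delta T cells, and by Il7r.

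Cluster 0 held 27.3% and 30.9% of tumor KO and tumor WT T-like cells, against 52.7% and 51.8% of normal KO and normal WT ones. Cluster 7 held 29.9% and 43.6% in tumor KO and tumor WT, against 14.3% and 17.9% in normal KO and normal WT. Cluster 1 held 40.3% in tumor KO, 20.0% in tumor WT, 21.1% in normal KO and 21.7% in normal WT. So both tumor libraries had a smaller share of the cluster richest in Lef1 and a larger share of cluster 7.

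In normal lung Lef1 had 625 CPM in KO and 661 CPM in WT in cluster 0, against 196 and 222 CPM in cluster 1, 227 and 191 CPM in cluster 7 and 47.1 and 37.8 CPM in cluster 19. Klf2 had 1439 CPM in KO and 1442 CPM in WT in cluster 0, and unlike Lef1 was nearly as high in cluster 1, at 1171 and 1394 CPM. It had 760 and 981 CPM in cluster 7. In cluster 19 Klf2 had 158 and 279 CPM, a KO over WT ratio of 0.568 (0.455 to 0.708). Il7r ran the other way, with 2271 CPM in KO and 2106 CPM in WT in cluster 19 against 898 and 889 CPM in cluster 0. S1pr1 was highest in cluster 7, at 489.8 CPM in KO and 555 CPM in WT. The 7 genes thus do not mark 1 kind of T cell: S1pr1 peaked in the cluster of Ctla4 and Icos, and Il7r in that of Trdc and Cxcr6.

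Within cluster 0, 4 of the 7 were lower past 1.5-fold in tumor KO than in normal KO, but so were 41.5% of all genes with these 21 tumor cells. Each of the 4 had an interval that left out 1, against 2.02% of all genes. Lef1 had a ratio of 0.426, Tcf7 0.527, S1pr1 0.400 and Klf2 0.428, while Il7r (0.879), Satb1 (0.851) and Bach2 (0.962) did not pass. In WT none of the 7 passed there, beside 41.9% of genes lower and 30.9% higher, with Lef1 at 0.720 and Il7r at 1.39. In KO against WT in the tumor, Lef1 (0.560), Tcf7 (0.378), Il7r (0.637), S1pr1 (0.303) and Klf2 (0.496) were lower in the 21 KO cells than in the 17 WT cells of cluster 0, beside 29.3% of genes. In cluster 1, with 31 KO and 11 WT cells, Il7r (0.368, 0.251 to 0.546) was lower, beside 22.7% of genes, while Lef1 (3.12, on 16 and 1 UMIs), S1pr1 (1.56) and Klf2 (1.53) were called higher, beside 32.6%, and these 3 intervals held 1. In cluster 7, with 23 KO and 24 WT cells, Tcf7 (0.529) and Il7r (0.570) were lower, beside 20.8% of genes, and Satb1 (2.56) higher, beside 22.6%, and of the 3 only the Il7r interval left out 1. Within cluster 7 all 7 were lower in tumor KO than in normal KO, with Satb1 at 0.221 and Bach2 at 0 UMIs, beside 24.9% of genes. In WT 6 of the 7 were, with Il7r at 0.779 the exception, beside 27.2% of genes. Within cluster 1, which held the most tumor KO T-like cells, Lef1 (0.452) alone passed in KO, beside 24.4% of genes, with the others at 0.726 to 1.17. In WT, with 11 tumor cells, Lef1 (0.128, on 1 tumor UMI), S1pr1 (0.438, on 4) and Klf2 (0.408) were lower there, beside 44.3% of genes, and Il7r (1.61) higher, beside 30.8%. With the clusters weighted alike in both libraries, the KO median was -0.73 and the WT median -0.25, against -0.81 and -0.40 as pooled, and 4 of the 7 passed in KO and 1 of the 7, Lef1, in WT. Il7r in KO then had a log2 ratio of 0.044, Satb1 -0.48 and Bach2 -0.24, and in WT Klf2 had -0.47 and Satb1 -0.43.

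**Figure D4:**
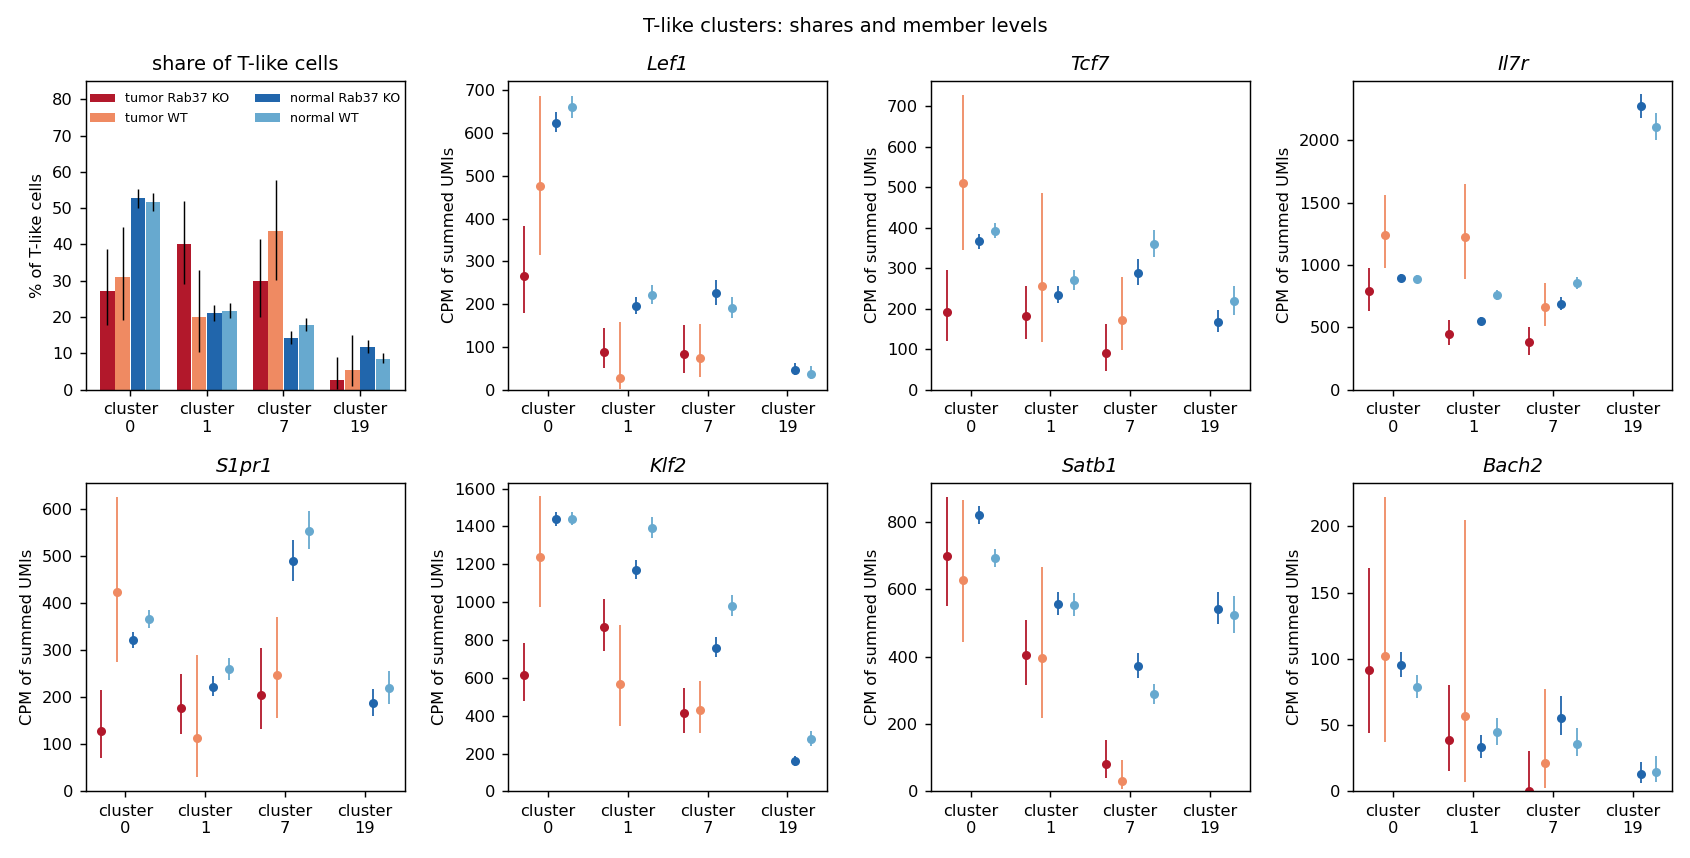
Left, share of T-like cells in each of 4 clusters by library, in percent with exact 95% binomial intervals, and right, the level of each gene in CPM by cluster and library, with under 10 cells not drawn. Cluster 0, with 52.7% of normal KO and 27.3% of tumor KO T-like cells, has the highest Lef1.

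Other genes of rest and homing, on lists of 59 genes in all, are set beside the 7. In tumor KO against normal KO T-like cells, 1 of 6 homing genes was lower and 1 higher, Ccr7 at 0.267 and the integrin Itga4 at 1.61, and the oxysterol receptor Gpr183 stood at 0.692. Of 14 naive identity genes 5 were lower and none higher, including Actn1 at 0.292, Dapl1 at 0.435, Il6ra at 0.485 and Igfbp4 at 0.507. Of 12 quiescence genes 2 were lower and none higher, the anti-proliferative Tob1 at 0.630 and the repressor Klf3 at 0.645. Of 17 activation, residency and effector genes 13 were higher and 1 lower, with the protease Gzmb at 5.25, the repressor Prdm1 at 4.48, Zeb2 at 3.52 and the inhibitory receptor Pdcd1 at 3.39. The medians were -0.12 for homing, -0.43 for naive identity, 0.00 for quiescence and 1.04 for activation, beside 0.09 for all genes. Among all genes measured 23.2% were higher and 21.5% lower.

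In tumor WT against normal WT, 2 of 6 homing genes were lower and 1 higher, with Ccr7 at 0.302, Gpr183 at 0.621 and Itga4 at 1.71. Naive identity genes were lower in 3 of 14, among them Dapl1 at 0.429, and quiescence genes higher in 3 and lower in 1 of 12. Activation genes were higher in 6 and lower in 1 of 16, with the residency integrin Itgae at 4.71 and the cytokine Ifng at 2.61. Among all genes measured 34.1% were higher and 24.9% lower, so the activation, naive identity and quiescence counts were near or below those shares. The activation median was 0.21 and the naive identity median -0.07, both below the 0.31 of all genes. Dissociation stress genes were higher in 5 of 10 in WT, against 2 higher and 4 lower in KO, and their part in the ratios was not tested.

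In KO against WT in the tumor, none of the 6 homing genes passed, while 4 of 14 naive identity genes were lower, including Il6ra at 0.367 and Actn1 at 0.448. Of 16 activation genes 7 were higher and 1 lower, with Gzmb at 3.93, Ccl5 at 3.75, Nr4a2 at 3.39 and Itgae at 0.220. Among all genes measured 17.7% were higher and 22.4% lower. Stress genes were lower in 8 of 10, with a median of -1.05, and their part in the ratios of the 7 genes was not tested. In normal lung none of the homing, quiescence, naive identity and stress genes passed, and 1 of 17 activation genes was higher. There 6.40% of all genes were higher and 6.18% lower.

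**Figure D5:**
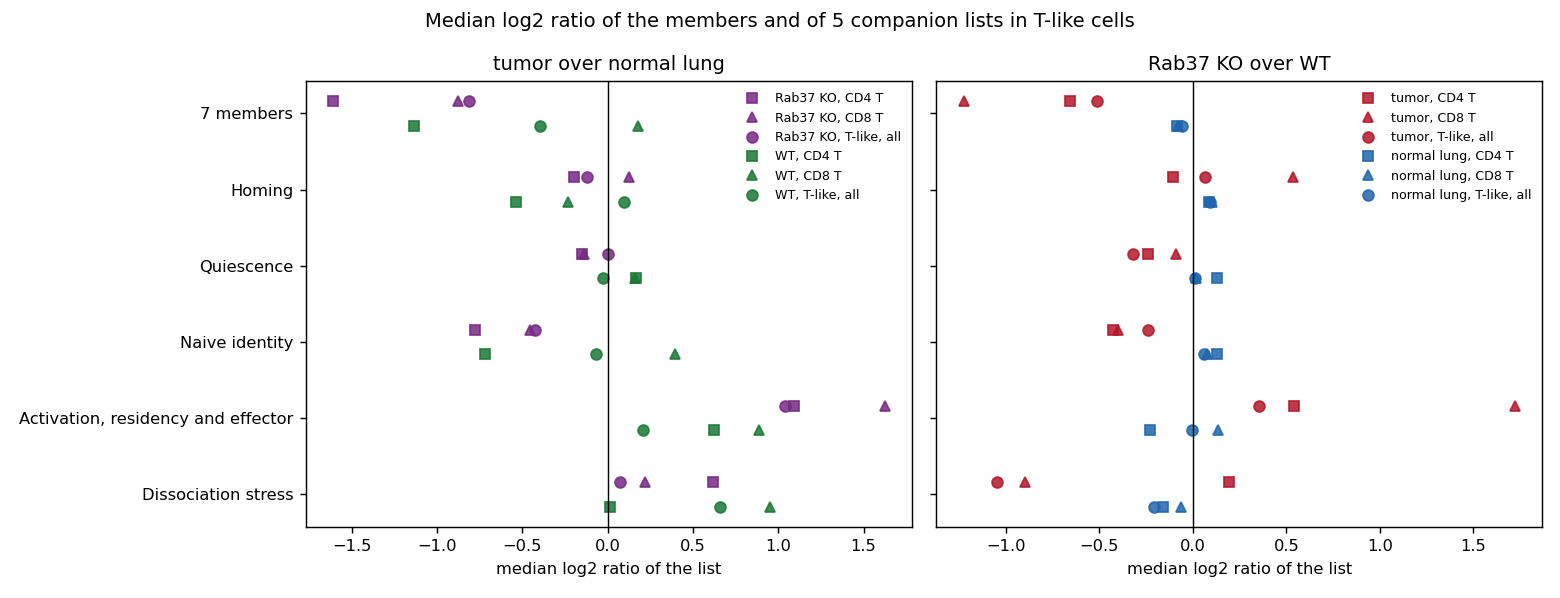
Median log2 ratio (x axis) of the 7 genes and 5 companion lists in CD4 cells (squares), CD8 cells (triangles) and all T-like cells (circles) for each comparison. In KO tumor against normal the 7 genes stand at -0.81 in T-like cells and the activation list at 1.04, while in normal lung KO against WT the medians of the 7 genes lie within 0.1 of 0.

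Across 15 pairs of class and library with at least 20 cells, the genes most like the mean of the 7 were Gpr146 (r = 0.92), Actn1 (0.92), Igfbp4 (0.91), Itga6 (0.91) and Rab3ip (0.89), as a description over pairs that share libraries. Lef1 and Tcf7 had r = 0.94, Lef1 and Il7r 0.91, and Tcf7 and Il7r 0.94. Bach2, highest where those 3 are lowest in B cells, had r of -0.62, -0.80 and -0.76 with them, and Klf2 had r of -0.34 to 0.37 with the others.

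T cells were also split by whether they held a UMI of another gene. In normal lung CD8 cells with a Ccl5 UMI had 279 CPM of Lef1 in KO against 648 CPM in those without, and 336 against 627 CPM in WT. Bach2 was at a ratio of 0.647 in KO and 0.683 in WT, past 1.5-fold in KO alone. Tcf7 (0.886 in KO and 0.923 in WT), Il7r (0.787 and 0.888) and S1pr1 (0.765 and 0.719) did not pass in either. Nor did Klf2 (0.902 and 0.932) and Satb1 (0.782 and 0.789). No share of all genes is given for this split. T-like cells were split by Cd69, the early activation marker that opposes S1pr1 at the cell surface. With over without, Klf2 had a ratio of 1.27 in normal KO and 1.17 in normal WT, and S1pr1 0.868 and 0.878, all within 1.5-fold. In the tumor, with 54 against 23 KO cells and 31 against 24 WT cells, Klf2 had 1.63 in KO and 0.845 in WT. S1pr1 had 1.25 in tumor KO and 2.38 (1.25 to 4.84) in tumor WT, and Tcf7 1.13 and 2.21. For the Cd69 split too no share of all genes is given, so these values are not set apart from those of other genes.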

How the data were processed

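The authors deposited matrices of unnormalized UMI counts (genes by barcodes) for 4 libraries; per the submitters' processing notes the build is mm10, and the aligner's settings are not given in the sources used here. Barcodes needed 200 genes and no more than 10% mitochondrial UMIs. Scrublet, run per library, took out 4, 3, 80 and 179 doublets in tumor KO, tumor WT, normal KO and normal WT. The calls in the tumor libraries, 0.147% and 0.464%, are few. Cells were clustered jointly on 2000 variable genes, 30 components and 15 neighbours at resolution 1, leaving out the 7 genes, the companion lists, Rab37 and sex genes. Clusters were named from markers. A cycling cluster that scored for several lymphocyte classes and 1 other were left unnamed, by a rule set after the clusters were seen. T-like cells were split by UMIs of Cd4, of Cd8a or Cd8b1, and of Trdc. Those with none of these, or with UMIs of more than 1 gate, stayed unassigned.

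UMIs were summed per class and library to CPM. A ratio needs at least 10 UMIs over both libraries and 10 cells in each, and is called past 1.5-fold; its interval is the exact conditional binomial one at 95%, and levels have exact Poisson intervals. A fold against 0 uses a floor of 3 UMIs. Shares are of cells thinned to 1500 UMIs. The interval code was tested on simulated counts. Named genes are all 7, up to 4 of each companion list with the largest ratio at 50 CPM or more in the higher library, and the 5 most like the mean of the 7 by log2(CPM + 10). The members and lists were chosen with earlier results of these data known. Counts of 3' tags are not compared between genes. Tools were Python 3.11.15, scanpy 1.11.5, scikit-learn 1.9.0, igraph 0.11.9, numpy 2.4.6, scipy 1.17.1, pandas 2.3.3 and matplotlib 3.10.9. Alternatives changed the doublet, mitochondrial, class, scaling, thinning, sex and gate choices. A gene of the homing list is not reported here, and the list's counts and medians leave it out.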

Additional observations from a re-analysis of the deposited data

How the results depend on the processing

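With 1 library per group, depth and cell number limit every tumor value: 10 to 28 cells a class in CD4 and CD8, and spread between animals is not known. No paired analysis was possible because each group has 1 library and no test was made. Of the medians of the 7 genes recomputed under the alternatives, 248 moved by less than their counting error and 14 moved by more. Of the single ratios 1605 moved by less, 150 by more and 5 turned round. A lower minimum of 1 UMI for the genes gave the same calls as the main setting, and its 21 medians and 142 ratios are among those that moved by less. A move within counting error can still end a call, as for Tcf7 and S1pr1 in tumor T-like cells, KO over WT, with classes called cell by cell. The shares of cells, retaken without thinning or at 1000 UMIs, mostly moved by more, 185 against 123. Some alternatives (5) were added after seeing the data. The T-like median of tumor over normal in KO ran from -0.61 to -1.03 and that of KO over WT in tumor from -0.34 to -0.71, apart from classes called cell by cell from marker UMIs, which gave -0.26 for KO over WT in tumor T-like cells (-0.51 otherwise), -1.44 for tumor over normal in KO T-like cells (-0.81 otherwise), -1.24 in WT ones (-0.40), -2.21 in KO CD4 cells (-1.61), and in B cells 0.091 for tumor over normal in KO (-0.18) and 0.12 for KO over WT in normal lung (0.23). The last was -0.18 with doublets kept and -0.23 in male cells. Tumor over normal in WT T-like cells was -0.88 in female cells. KO CD4 cells without Foxp3 gave -0.75. KO over WT in normal CD4 cells (-0.08) was 0.23 with at least 2 marker UMIs and 0.11 in female cells, and in normal T-like cells (-0.06) 0.016 when thinned. Turned round were Tcf7 in WT NK cells, tumor over normal, at -0.15 with classes called cell by cell; Lef1 in normal B cells, KO over WT, at -0.59 so called; Il7r in tumor CD4 cells, KO over WT, at 0.19 when thinned; S1pr1 in normal NK cells, KO over WT, at -0.32 in male cells; and Il7r in KO T-like cells, tumor over normal, at 0.044 with clusters weighted alike. Median-of-ratios scaling moved the log2 ratios down by 0.22 in KO and 0.40 in WT T-like cells, tumor over normal. The cause of these moves was not tested.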

Other observations

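Both normal lungs held cells of both sexes, so the 7 genes could be set side by side within a library, female over male. In gamma-delta T cells Lef1 was at 249 CPM in female against 96.7 CPM in male cells in KO, a ratio of 2.58 (1.48 to 4.66), and at 239 CPM in female against 97.3 CPM in male cells in WT, a ratio of 2.45 (1.19 to 5.36). These rest on 39 female and 38 male cells in KO and 23 female and 28 male cells in WT, and the number of animals of each sex is not given. Klf2 was at 1.70 in KO and 1.46 in WT, Satb1 at 1.496 and 1.56, and S1pr1 at 1.17 and 1.96. Female CD4 cells also had more Lef1, with ratios of 1.66 (1.32 to 2.11) in KO and 1.41 (1.11 to 1.80) in WT. Bach2 in CD4 cells was at 1.88 in KO and 0.915 in WT. In CD8 cells all 7 genes had ratios of 0.877 to 1.34 in both libraries. Lef1 in B cells was lower in female cells of KO, at 0.240 on 7 female and 35 male UMIs. No share of all genes was taken for these ratios of the sexes. In B cells Klf2 was 0.604 in WT (0.557 to 0.656) and 1.25 in KO, so the sexes differed in opposite directions in the 2 libraries.

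Outside the 5 classes, ILC2-like cells of normal lung, 52 in KO and 38 in WT, had 984.5 CPM of Il7r in KO and 808 CPM in WT but 113 CPM of Klf2 in KO and 118.5 CPM in WT. Endothelial cells that passed the CD45 sort, 58 in KO and 21 in WT, had the highest S1pr1 of the named classes in normal lung, at 622.5 CPM in KO and 668 CPM in WT, with Klf2 at 1447 CPM in KO and 2039 CPM in WT. Klf2 in neutrophils was lower in tumor, at 428 CPM in KO and 567 CPM in WT, than in normal lung, at 787 CPM in KO and 776 CPM in WT.

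Within normal T-like cells, thinned to 1500 UMIs, Klf2 was found in 76.4% of the cells with Lef1 against 54.0% of those without in KO, and in 75.5% against 58.9% in WT. Satb1 was found in 66.0% of the cells with Lef1 against 47.7% of those without in KO, and in 61.2% against 44.5% in WT. Il7r and Klf2 did not go together in this way, with Klf2 in 61.7% of the cells with Il7r against 65.3% of those without in KO, and in 64.5% against 66.8% in WT.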
